A study of Mus musculus with 6 samples.

Results

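The genes described here encode ligands of the epidermal growth factor (EGF) family and their ErbB receptor tyrosine kinases. The 9 members, chosen by gene symbol, were the ligands Hbegf, Areg, Ereg, Nrg1, Tgfa and Btc and the receptors Egfr, Erbb2 and Erbb3, out of 53715 genes in the deposited table. All 9 passed the filter on low counts that kept 26559 genes. The RNA came from cells gated as CD146+CD45-CD31- pericytes, which sit on the outer wall of small vessels. They were sorted from calf muscle, the gastrocnemius-soleus complexes, of wild-type (WT) C57BL/6J males aged 14 weeks. In the 3 stimulated mice the lower leg muscles had made 40 electrically driven contractions, 20 eccentric and 20 concentric, over about 10 minutes, and tissue was taken 3 hours later; the 3 sham mice were not stimulated. Both groups shared strain, genotype, sex and age, and each library is taken as 1 mouse from the stated group size of 3.

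EGF family ligands are made as membrane-anchored precursors and are released by metalloproteases. Hbegf, Areg, Ereg, Tgfa and Btc act through Egfr, while neuregulins such as Nrg1 bind Erbb3 and Erbb4. Erbb2 has no known soluble ligand and serves as the partner of the other receptors, and Erbb3 has little kinase activity of its own. In muscle and nerve the neuregulin and Erbb3 axis is known for the upkeep of Schwann cells, and amphiregulin for its release by regulatory T cells during repair.

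The libraries held 18204991, 21004095 and 23709220 estimated reads after stimulation and 20292341, 17520338 and 21825118 in sham. The gate was checked against its markers. The 10 pericyte markers together summed to 155.5 to 375 CPM (counts scaled to a common library size, with factors from the trimmed mean of M values, TMM) after stimulation and 315 to 669 CPM in sham. The 12 endothelial markers summed to 2134 to 3213 CPM and 3462 to 8757 CPM, the 6 T cell markers to 390 to 475 CPM and 51.9 to 290.0 CPM, and the 7 neutrophil markers to 112 to 178 CPM and 46.2 to 60.9 CPM. The 4 B cell markers summed to 595 to 763 CPM after stimulation and 86.8 to 1005 CPM in sham. That was more than the pericyte sum in every library but sham replicate 2, and the endothelial sum was above the pericyte sum in every library. Members of each of these lists were above 0, so RNA that marks other cell types was present. RNA of Mcam, which encodes CD146, stood at 24.3 to 104.9 CPM, below Ptprc (CD45) at 194 to 1035 CPM and Pecam1 (CD31) at 384 to 1277 CPM, and it was below both in every library. CPM is not divided by transcript length, so this order between genes holds for read numbers only. In such bulk samples, fewer cells of a type and less RNA per cell cannot be told apart. Sham replicate 2 stood apart, with the highest endothelial and lowest T cell sums.

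Of the 9 members, 8 were found by the symbol column of the gene table. The row of Areg (ENSMUSG00000029378.5, chromosome 5, 91139599 to 91148432, GRCm38) carries the description of amphiregulin but the symbol Mcub, which also labels the row of the true Mcub, ENSMUSG00000027994.14. Areg was therefore taken by its identifier. The transcript tables name it Areg.

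The short sequences below are shown because they weigh heavily in the gene values of Nrg1 and Erbb4. Gene values in the deposited table follow TPM (a transcript's share of all reads after division by effective length), in which a read on a very short transcript weighs more than a read on a long one. Nrg1-209 (chr8:31826288-31849375, minus strand, GRCm38, 285 bases, 5 exons) and Erbb4-204 (chr1:68290155-68298318, minus strand, GRCm38, 240 bases, 3 exons) are annotated as processed transcripts, and both are printed from the GENCODE M21 transcript set. Capitals mark bases that lie within the coding sequence of a coding transcript of the gene, which holds for all 285 bases of Nrg1-209 and for 152 of 240 bases of Erbb4-204. The Nrg1 stretch runs through the EGF-like domain by which neuregulins bind their receptors.
Nrg1-209: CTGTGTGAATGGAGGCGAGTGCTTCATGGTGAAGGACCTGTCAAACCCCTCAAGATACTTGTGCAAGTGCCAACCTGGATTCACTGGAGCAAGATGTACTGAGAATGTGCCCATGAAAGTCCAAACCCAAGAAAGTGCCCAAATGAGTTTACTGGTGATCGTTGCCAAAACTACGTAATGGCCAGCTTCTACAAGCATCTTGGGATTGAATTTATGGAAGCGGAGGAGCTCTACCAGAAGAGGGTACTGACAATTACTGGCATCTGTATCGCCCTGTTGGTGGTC
Erbb4-204: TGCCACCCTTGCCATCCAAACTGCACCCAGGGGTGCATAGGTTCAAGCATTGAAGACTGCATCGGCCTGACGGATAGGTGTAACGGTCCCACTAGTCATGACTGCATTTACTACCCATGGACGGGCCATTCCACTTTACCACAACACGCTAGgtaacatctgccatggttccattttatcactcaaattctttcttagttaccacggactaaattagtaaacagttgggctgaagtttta

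Nrg1-209 had an effective length of 39 bases and took 7.59 of the gene's 137 estimated reads over the 6 libraries, which is 5.55% of the reads and 74.4% of the TPM. Erbb4-204 had an effective length of 17 bases and 2 reads, both in sham replicate 2, which made 92.1% of the gene's TPM in that library. Fold changes from the gene table and from summed reads differed by more than 1 on the log2 scale for 1 of 9 members, Nrg1, and for 1.08% of all genes tested in both. The stimulated and sham values of each member are therefore compared below from the deposited gene table and again from estimated reads summed over the transcripts of each gene.

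Levels between genes were compared per length, as estimated reads divided by effective length and by library size (RPKM) of the coding transcript with most reads. TPM was not used for this, since transcripts with an effective length under 100 bases took 94.4 to 96.8% of it. Egfr was the most abundant member, at 3.26 to 7.16 RPKM with a median of 3.57, and exceeded Hbegf in 6 of 6 libraries. Hbegf ranged from 2.34 to 5.77 RPKM and exceeded Areg, at 1.66 to 2.87 RPKM, in 5 of 6. Areg exceeded Erbb2 (0.928 to 2.65 RPKM) in 5 of 6 libraries, and Erbb2 exceeded Btc (0.828 to 1.60 RPKM) in 4 of 6. Lower still were Erbb3 at 0.251 to 1.20, Tgfa at 0.345 to 0.653, Ereg at 0.197 to 0.402 and Nrg1 at 0 to 0.133 RPKM. Ranges over the 6 libraries overlapped between all neighbours in this order except Ereg and Nrg1, and Erbb3 exceeded Tgfa in 3 of 6 libraries. The transcript used held 12.5% of the reads of Nrg1, 60.7% of Tgfa, 79.7% of Erbb2, 81.4% of Btc and 89.4% of Egfr. For Hbegf, Areg, Erbb3 and Ereg it held 100%. Several pairs thus compare a part with a whole, most of all Ereg and Nrg1. Summed over its transcripts, Nrg1 had 9 to 34 reads per library, so 0 RPKM does not mean that the gene had no reads.

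The comparison asks whether these transcripts differ 3 hours after stimulation. None of the 9 members passed an adjusted p of 0.05 in edgeR's quasi-likelihood test with Benjamini-Hochberg adjustment over all 26559 genes, where 0.0% of genes were called. Their adjusted p ran from 0.723 to 1.00, 0 of 9 had an unadjusted p under 0.05 against 7.05% of all genes, and limma voom, which called 0.0% of genes, and DESeq2 also called 0 of 9. From summed reads edgeR called 0 of 9 members and 0.00377% of genes, and 0 of 9 members against 7.49% of genes had an unadjusted p under 0.05. DESeq2 called 1.14% of the genes for which it gave an adjusted p, and it gave none for Ereg. Stimulated and sham CPM values overlapped for all 9 members, from the gene table and from summed reads, where 12.0% and 12.1% of tested genes had groups that did not overlap. The median log2 fold change was -0.028 over the members and -0.023 over all genes tested, and 3 of 9 were above 0, against 48.0% of all genes. From summed reads 7 of 9 were above 0, with a median of 0.059 beside -0.023 over all genes, of which 47.6% were above 0.

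**Figure D1:**
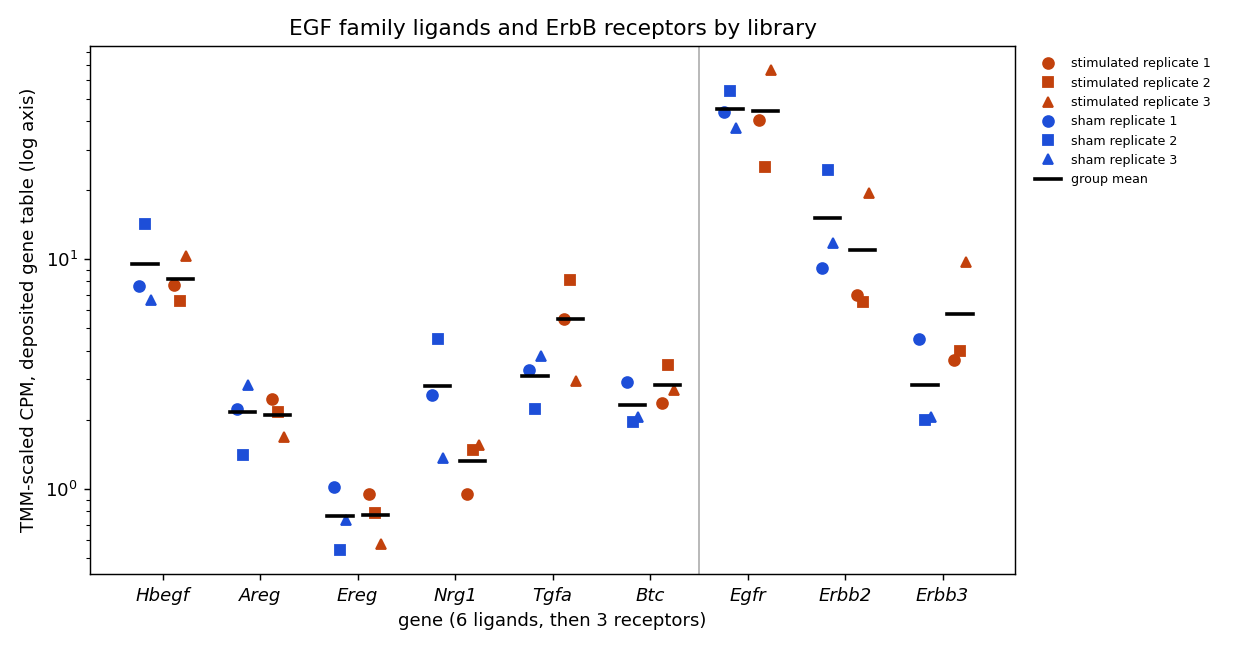
TMM-scaled CPM of the 9 members (x axis, ligands left of the line) in each library on a log axis, from the deposited gene table; points are libraries and bars are group means. In every gene at least 1 stimulated point lies within the span of the sham points or the reverse, and Egfr lies highest, between 25.2 and 66.6 CPM.

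Among the ligands of Egfr, Hbegf had the most RNA. Hbegf encodes heparin-binding EGF-like growth factor (ENSMUSG00000024486.5, chromosome 18, 36504927 to 36515805). It stood at 7.74, 6.60 and 10.3 CPM in stimulated replicates 1 to 3 and at 7.64, 14.2 and 6.67 CPM in sham replicates 1 to 3, with 135 to 258 summed reads per library. Sham replicate 2 was the highest library, and the other sham values fell within the stimulated range. The log2 fold change was -0.21 (SE 0.36, 95% interval -1.02 to 0.61, edgeR adjusted p = 0.98), and -0.18 from summed reads. Without sham replicate 2 it was 0.21 from the gene table and 0.17 from summed reads. That library also had the highest marker sums of pericytes (669 CPM), smooth muscle (432 CPM), endothelium (8757 CPM), monocytes and macrophages (697 CPM) and fibro-adipogenic cells (1619 CPM). The part of these cells in the Hbegf value was not tested.

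Areg and Ereg, which encode amphiregulin and epiregulin, were nearly level between the groups. Areg stood at 2.48, 2.17 and 1.68 CPM after stimulation and 2.22, 1.41 and 2.84 CPM in sham. Its lowest and highest values were both sham libraries, and its log2 fold change was -0.034 (SE 0.41, 95% interval -0.96 to 0.89, edgeR adjusted p = 1.00), and 0.030 from summed reads. In the same libraries the 5 regulatory T cell markers, which include Foxp3, summed to 111, 99.6 and 83.7 CPM after stimulation and 80.9, 18.5 and 51.6 CPM in sham. Those sums were just apart between the groups, at 83.7 and 80.9 CPM, and the part of these cells in the Areg value was not tested. Ereg (ENSMUSG00000029377.5, chromosome 5, 91074622 to 91093646) rested on 10.1 to 23.1 reads per library. It stood at 0.948, 0.788 and 0.575 CPM after stimulation and 1.02, 0.542 and 0.735 CPM in sham, and the fitted log2 fold change was -0.00051 (SE 0.50, 95% interval -1.13 to 1.13), and 0.033 from summed reads. That interval is wide beside the difference.

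Tgfa and Btc had higher stimulated than sham means without passing the test. Tgfa, which encodes transforming growth factor alpha (ENSMUSG00000029999.14, chromosome 6, 86195223 to 86275719), stood at 5.48, 8.08 and 2.96 CPM after stimulation and 3.29, 2.22 and 3.78 CPM in sham. Stimulated replicates 1 and 2 lay above all sham libraries, and stimulated replicate 3 lay within the sham range. The log2 fold change was 0.83 (SE 0.43, 95% interval -0.14 to 1.79, edgeR adjusted p = 0.77), and 0.44 (SE 0.31) from summed reads. Without stimulated replicate 2 it was 0.44 from the gene table and 0.33 from summed reads. Of the 467 reads of Tgfa, 64.4% were assigned to its 2 coding transcripts and 35.6% to 2 processed transcripts. The 410-base coding transcript held 9.64 of 101 reads in stimulated replicate 2 and 0 in stimulated replicate 3, sham replicate 1 and sham replicate 2.

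Btc encodes betacellulin (ENSMUSG00000082361.6, chromosome 5, 91357261 to 91402994). It stood at 2.37, 3.45 and 2.70 CPM after stimulation and 2.93, 1.95 and 2.05 CPM in sham, which gave a log2 fold change of 0.29 (SE 0.37, 95% interval -0.53 to 1.12, edgeR adjusted p = 0.97), and 0.12 from summed reads. The groups overlapped through sham replicate 1. That library also held 42.4 of the 55.1 reads assigned to the retained intron transcript of Btc, and stimulated replicate 1 held the other 12.7. The coding transcript took 81.4% of the reads of Btc.

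Nrg1, the neuregulin among the members (ENSMUSG00000062991.7, chromosome 8, 31814551 to 32884029), had a large fold change in the gene table that summed reads did not show. The gene table gave 0.948, 1.48 and 1.55 CPM after stimulation and 2.58, 4.50 and 1.37 CPM in sham, which gave a log2 fold change of -1.08 (SE 0.50, 95% interval -2.22 to 0.06, edgeR adjusted p = 0.72). Summed reads were 34, 16 and 20 after stimulation and 31, 26.8 and 9 in sham. From these the log2 fold change was 0.059 (SE 0.58, 95% interval -1.24 to 1.35, edgeR adjusted p = 1.00). The 285-base Nrg1-209 printed above held 0, 0.928 and 1.00 reads after stimulation and 1.82, 2.91 and 0.932 in sham. Its share of the TPM of Nrg1 was 0% in stimulated replicate 1 and 69.6 to 83.9% in the other 5 libraries. Retained intron transcripts took 64.5% of all reads of Nrg1 and the 12 coding transcripts 29.7%, 6 of them with no read in any library.

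**Figure D2:**
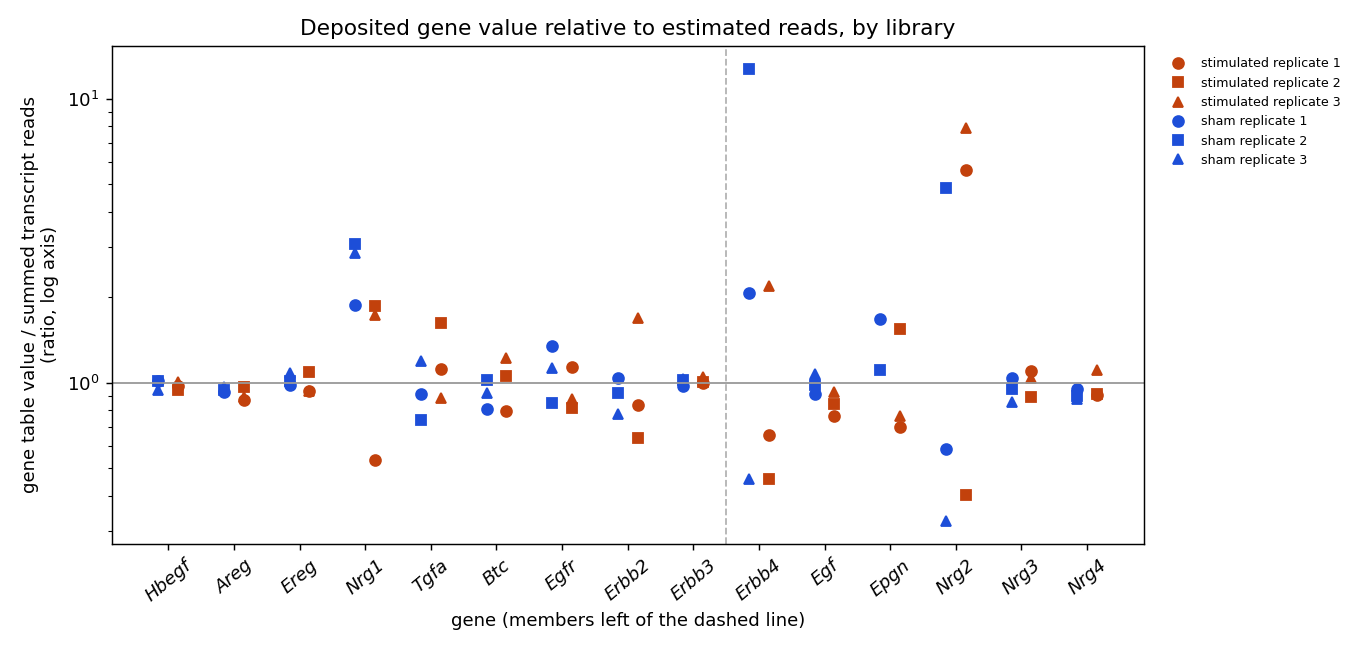
Ratio of the deposited gene value to the reads summed over the gene's transcripts (y axis, log scale) for the 9 members and 6 related genes (x axis), with 1 point per library. Hbegf and Erbb3 stay between 0.940 and 1.05, while Nrg1 spans 0.532 to 3.08, Erbb4 0.456 to 12.8 and Nrg2 0.325 to 7.90.

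The receptors were led by Egfr, a receptor of the 5 member ligands other than Nrg1 (ENSMUSG00000020122.16, chromosome 11, 16752203 to 16918158). Egfr stood at 40.5, 25.2 and 66.6 CPM after stimulation and 43.7, 54.1 and 37.2 CPM in sham. The lowest and the highest library were both stimulated. The log2 fold change was -0.028 (SE 0.35, 95% interval -0.83 to 0.77, edgeR adjusted p = 1.00) and 0.14 from summed reads, and without stimulated replicate 3 it was -0.45 and -0.36. The 8 fibro-adipogenic markers, which include Pdgfra, summed to 587, 694 and 1357 CPM after stimulation and 937, 1619 and 1316 CPM in sham, and stimulated replicate 3 was the highest of its group for both, as it was for the pericyte and endothelial sums; the part of those cells in the Egfr value was not tested. The 10208-base coding transcript held 89.4% of the 5559 reads of Egfr.

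Erbb2, the shared partner receptor (ENSMUSG00000062312.5, chromosome 11, 98412470 to 98437716), was lower on average after stimulation but overlapped. It stood at 6.95, 6.50 and 19.4 CPM after stimulation and 9.15, 24.4 and 11.8 CPM in sham, and the log2 fold change was -0.46 (SE 0.51, 95% interval -1.62 to 0.69, edgeR adjusted p = 0.96). Summed reads gave 8.24, 10.4 and 11.3 CPM after stimulation and 8.74, 26.5 and 15.4 CPM in sham, for which it was -0.76 (SE 0.38, 95% interval -1.60 to 0.09, edgeR adjusted p = 0.72). The sources differed most in stimulated replicate 3, where the 388-base processed transcript held 8.56 of 259 reads and the gene table stood at 1.69 times the summed reads. Sham replicate 2 was the highest library in both, and without it the gene table gave 0.073 and summed reads -0.31. Without stimulated replicate 3 they gave -1.17 and -0.86. The full coding transcript took 79.7% of the reads of Erbb2.

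Erbb3, a receptor of neuregulins (ENSMUSG00000018166.8, chromosome 10, 128567523 to 128589652), had the largest positive fold change of the members. It has 1 transcript in the tables, so both sources gave nearly the same values. Erbb3 stood at 3.63, 3.99 and 9.77 CPM after stimulation and 4.49, 2.00 and 2.05 CPM in sham. Stimulated replicate 3 was above every other library and sham replicate 1 lay above stimulated replicates 1 and 2. The log2 fold change was 1.02 (SE 0.50, 95% interval -0.12 to 2.16, edgeR adjusted p = 0.75), 0.98 from summed reads, and without stimulated replicate 3 it was 0.42 and 0.43.

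Markers of Schwann cells, in which Erbb3 is known to act, were read as a whole list. The 8 markers, which include Sox10, summed to 68.3, 67.7 and 103 CPM after stimulation and 59.3, 43.8 and 67.9 CPM in sham, and 5 of 8 had a log2 fold change above 0. Stimulated replicate 3 was the highest library for both Erbb3 and this sum, while sham replicate 1, second for Erbb3, was below all libraries except sham replicate 2 for the sum. Stimulated replicate 3 also had the highest summed markers of satellite cells (33.5 CPM, others 2.86 to 17.7), tenocytes (334 CPM, others 38.2 to 192) and myofibres (131.5 CPM, others 21.1 to 40.0). The part of these cells in the Erbb3 value was not tested.

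Erbb4, the receptor of neuregulins outside the 9 members (ENSMUSG00000062209.15, chromosome 1, 68032186 to 69108059), showed the largest fold change of the family. The gene table gave 0.790, 0.197 and 1.06 CPM after stimulation and 6.98, 23.5 and 0.158 CPM in sham. The lowest and the 2 highest values were sham libraries. The log2 fold change was -3.88 (SE 1.26, 95% interval -6.73 to -1.03, edgeR adjusted p = 0.59). Summed reads were 23, 9 and 11 after stimulation and 76, 34 and 7 in sham, for which the log2 fold change was -1.39 (SE 0.75, 95% interval -3.07 to 0.29, edgeR adjusted p = 0.77). In sham replicate 2 the gene value was 12.8 times the summed reads, and the 2 reads on Erbb4-204 printed above lay in that library.

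Among the other ligands, 0 of 5 passed the test. Nrg4, a neuregulin that binds Erbb4, was the 1 of these 5 genes whose groups did not overlap, beside 12.0% of all tested genes. It stood at 2.58, 2.41 and 3.36 CPM after stimulation and 4.40, 5.74 and 3.41 CPM in sham, for a log2 fold change of -0.70 (SE 0.35, edgeR adjusted p = 0.76), and -0.80 (SE 0.31, 95% interval -1.50 to -0.09, edgeR adjusted p = 0.61) from summed reads. Transcripts annotated as coding held 23.1% of the reads of Nrg4. Nrg2 took values of 15.7, 1.03 and 13.3 CPM after stimulation and 0.844, 16.0 and 0.893 CPM in sham, although its summed reads were 33 to 61 in every library. The 3 high libraries were those with about 1 read, 0.936 to 0.975, on its 161-base transcript, which has an effective length of 6 bases. Its log2 fold change was 0.76 from the gene table and -0.10 from summed reads. Egf itself stood at 6.19 to 6.60 CPM after stimulation and 5.41 to 7.33 CPM in sham (log2 fold change -0.046, SE 0.28), with 18.1% of its reads on coding transcripts. Nrg3 had -0.18 (SE 0.38), and Epgn rested on 0 to 20 reads per library.

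**Figure D3:**
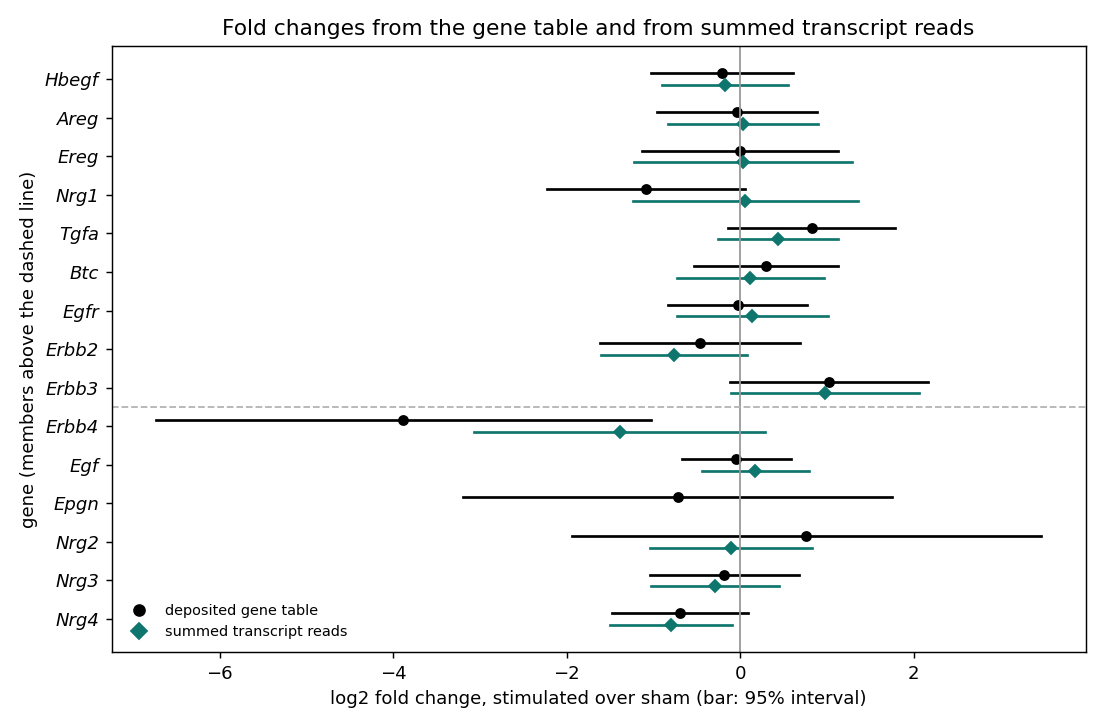
Log2 fold change of stimulated over sham (x axis) with its 95% interval for the 9 members and 6 related genes (y axis), from the deposited gene table (circles) and from summed transcript reads (diamonds; Epgn did not pass the filter there). For all 9 members both intervals include 0, and Nrg1 moves from -1.08 to 0.059 and Erbb4 from -3.88 to -1.39 between sources.

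Genes that act around the receptors were given by list and, with the 5 other ligands and Erbb4, made 55 genes. Of these, 0 of 55 passed the edgeR test over all genes, with 7 at an unadjusted p under 0.05, beside 7.05% of all genes. Erbb4 was 1 of the 7. Of the 55, 23 were above 0 and 32 below, beside 48.0% of all genes above 0. Of 12 sheddases and their cofactors, 5 were above 0 and 7 below. Adam8, a metalloprotease of myeloid cells, had the smallest p there, at 62.6, 51.2 and 37.4 CPM after stimulation and 10.2, 21.3 and 37.1 CPM in sham (log2 fold change 1.14, SE 0.43, edgeR adjusted p = 0.66). Its groups were just apart, at 37.4 and 37.1 CPM. Adam8 was the 1 of these 12 genes whose groups did not overlap, beside 12.0% of all tested genes. In the same libraries neutrophil markers summed to 112 to 178 CPM against 46.2 to 60.9 CPM. Monocyte and macrophage markers, of which 2 of 6 were above 0, overlapped at 327 to 516 CPM against 208 to 697 CPM. The part of these cells in the Adam8 value was not tested. Rhbdf1, a rhomboid pseudoprotease that regulates Adam17, had -0.59 (SE 0.34), and the rhomboid protease Rhbdl2 had -0.73 (SE 0.48).

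Adaptors and feedback genes were mixed in direction. Of 12 adaptors, 5 were above 0, with Gab2 at -0.84 (SE 0.34), Nck1 at -0.78 (SE 0.34) and Sos2 at -0.43 (SE 0.25). Of 14 feedback inhibitors, 8 were above 0. Spred2, an inhibitor of Ras-ERK signalling, stood at 26.5, 38.9 and 39.8 CPM after stimulation and 50.0, 95.5 and 74.3 CPM in sham. All stimulated libraries lay below all sham libraries, with a log2 fold change of -1.06 (SE 0.30, edgeR adjusted p = 0.54), the smallest adjusted p of the 55 genes. Spred2 was the 1 of 14 feedback inhibitors whose groups did not overlap, beside 12.0% of all tested genes. Lrig1, which promotes the breakdown of ErbB receptors, had 0.66 (SE 0.35) and the Sprouty gene Spry4 -0.90 (SE 0.49).

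Of 11 genes that respond to ERK signalling, 4 were above 0 and 7 below, with a median log2 fold change of -0.40 beside -0.023 over all genes. Egr1, an immediate early transcription factor, stood at 238, 282 and 277 CPM after stimulation and 421, 503 and 431 CPM in sham (log2 fold change -0.77, SE 0.25, edgeR adjusted p = 0.59). Fos, its AP-1 counterpart, had -0.81 (SE 0.32, edgeR adjusted p = 0.67), and the ETS factor Etv5 had -0.77 (SE 0.34). The groups did not overlap for 2 of the 11, Egr1 and Fos, beside 12.0% of all tested genes. Endothelial markers were lower after stimulation in the same libraries, at 2134 to 3213 against 3462 to 8757 CPM in sum. They were not alone in this, since 0 of 10 pericyte and 0 of 6 smooth muscle markers had a log2 fold change above 0. In contrast, 6 of 6 T cell and 7 of 7 neutrophil markers were above 0. The part of any of these cells in the Egr1, Fos and Etv5 values was not tested.

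The most similar patterns over the 6 libraries were sought for Hbegf and Egfr, the ligand and the receptor with the highest mean TPM among the members. Likeness was the root mean square difference of log2 CPM after each gene's mean was subtracted, among 4347 genes whose log2 CPM averaged 3 or more and spanned 1 or more; genes of lower expression were not candidates. For Hbegf the nearest were Ptpn12, a phosphatase (0.0858), the guanylate cyclase subunit Gucy1a2 (0.112) and the oncostatin M receptor Osmr (0.116). Ptpn12 stood at 47.9, 46.1 and 76.9 CPM after stimulation and 49.5, 95.6 and 44.8 CPM in sham, highest in sham replicate 2 like Hbegf. For Egfr the nearest were Eny2 (0.122), the glycogen phosphorylase Pygl (0.144) and Pitpnb (0.171). With 6 libraries such likeness is a description only.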

How the data were processed

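Per the labels' protocols, a strand-specific total RNA kit for low input was used. Salmon 0.8.2 on GRCm38 followed trimming with Trimmomatic 0.36, and edgeR is listed with R 3.5.1, per the submitters' processing notes; settings were not stated. The authors deposited estimated counts of 53715 genes in 1 table. Each library also has a deposited file of 135181 transcripts with estimated counts and TPM, per the file headers. Deposited lengths are in bases. Symbols and coordinates were taken by identifier from GENCODE M21, which matched 99.82% of genes.

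Estimated counts were rounded, filtered with filterByExpr (minimum count 10, minimum total 15) and scaled by TMM. Stimulated was tested against sham with edgeR 4.0.16 in R 4.3.3 (robust quasi-likelihood, Benjamini-Hochberg threshold 0.05). The SE is the log2 fold change divided by the square root of F, and intervals are 95% by the t distribution with the fit's degrees of freedom. No exact permutation test was run, because 3 against 3 libraries allow none to pass the threshold. Alternatives were RLE factors, 2 other filters, DESeq2 1.42.0, limma 3.58.1 voom, summed transcript reads, each library left out, a replicate block and a threshold of 0.1. Summed reads with each library left out, and RPKM, were chosen after seeing the data.

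On counts simulated for about 25306 genes (mean of 3 draws) with 200 changed, the test found 56.7% of 4-fold and 1.67% of 2-fold changes, with 8.33 false calls among 66.7. The changed genes were drawn from those with a mean above 2 CPM, and Ereg and Epgn had lower means. Among the members, Nrg1 (2.07 CPM), Areg (2.13 CPM) and Btc (2.57 CPM) lay just above that limit in the gene table. From summed reads Nrg1 (1.13 CPM) and Erbb4 (1.28 CPM) lay below it. The rates are averages over all drawn genes and were not worked out for genes of such low levels. Replicates differed by a chi-square per gene of 30.4 to 112, so none was counted as a duplicate.

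The members and lists were chosen with earlier results of these data known. Named genes were all members, their 6 relatives, up to 3 per pathway list by smallest p, and the 3 nearest patterns to the top ligand and receptor. Single values of some other marker genes are not reported here.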

Additional observations from a re-analysis of the deposited data

How the results depend on the processing

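None of the 9 members was called in any alternative run and none of the 55 pathway genes in those set for them (all but summed reads with a library left out), and the smallest adjusted p of a member over all of them was 0.217, for Erbb2 from summed reads without sham replicate 1. Over all genes edgeR called 0 (1872 at an unadjusted p under 0.05); the count was 3 with RLE factors, 109 with no filter, 227 with DESeq2 (6724 genes without an adjusted p), 0 with limma voom (1871 unadjusted), 1 from summed reads, 3 at a threshold of 0.1, and 0 to 1 when a library was left out. The sign turned in at least 1 setting for 7 of 9 members, Nrg1 included, and for Egf, Epgn and Nrg2. With summed reads Areg had 0.030, Ereg 0.033, Nrg1 0.059, Egfr 0.14, Egf 0.18 and Nrg2 -0.10. With no filter Ereg had 0.047, Egfr 0.041 and Egf 0.015. Ereg had 0.011 with RLE factors and 0.010 with DESeq2, and Epgn 0.36 with limma voom. Leaving out 1 library at a time, from either source, gave -0.40 to 0.21 for Hbegf, -0.26 to 0.27 for Areg, -0.19 to 0.33 for Ereg, -1.39 to 0.30 for Nrg1, -0.090 to 0.50 for Btc, -0.45 to 0.51 for Egfr, -1.17 to 0.073 for Erbb2, -0.16 to 0.35 for Egf, -1.29 to 0.37 for Epgn and -0.35 to 3.52 for Nrg2, and -0.11 to 0.30 for the median of the members. Tgfa (0.33 to 1.13), Erbb3 (0.42 to 1.54), Erbb4 (-4.45 to -0.57), Nrg3 and Nrg4 kept their sign. The cause of the sign changes was not tested. Same-numbered libraries had correlations of deviations from their group means of 0.317, -0.161 and 0.128 for replicates 1, 2 and 3. Stimulated replicates 1 and 3 correlated best with the sham library of their own number, and stimulated replicate 2 did not. These values cannot decide whether replicate numbers pair the libraries, and the main fit took the libraries as unpaired. With the replicate block edgeR called 0 genes and 0 members, with Areg at 0.0025 and Ereg at 0.019. Ereg, Nrg1 and Epgn rested on at most 34 summed reads in any library.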

Other observations

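The row of Areg was not the only one whose symbol disagreed with its identifier. In 1591 rows of the gene table the symbol differed from the GENCODE M21 symbol of the same identifier, and in 40 of these it was the GENCODE symbol of a different gene. A search by symbol alone would read such rows as another gene, or, as for Areg, miss the gene. The true Mcub row held 81.5 to 114 estimated counts after stimulation and 86.6 to 240 in sham, while the Areg row under the same symbol held 38.3 to 46.7 and 26.3 to 54.1.

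The genes of Epgn, Ereg, Areg and Btc all lie between 91027464 and 91402994 on chromosome 5 (GRCm38). Their log2 fold changes from the gene table were -0.72, -0.00051, -0.034 and 0.29, each with groups that overlapped.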
